A study of Drosophila melanogaster with 9 samples.

Results

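Skipped exons of at most 50 nt were described in larval wing discs of Drosophila melanogaster in which the RNA-binding protein Psi had been depleted by RNAi, and in control discs. They were chosen by length alone, from the end and start of each exon in the deposited table of exon-skipping events. They made up 595 of its 6493 events, and these 595 events held 443 of 4810 distinct exons and lay in 370 of 2106 genes. An event is 1 exon with 1 pair of flanking exons, and 105 of the 443 exons had more than 1 event, up to 10, so that events of 1 exon share reads.

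A skipped, or cassette, exon is either joined to its neighbours or left out with both its introns when the pre-mRNA is spliced. Very short exons are hard for the splicing machinery to recognise across their own length, because factors at both ends crowd each other, and in animals many of them are included mainly in neurons, where they add or remove a few amino acids. Psi is a KH-domain protein related to the mammalian FUBP family, and in somatic cells of Drosophila it acts with the U1 snRNP to block removal of an intron of the P-element transposase transcript.

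All 3 groups carried tubulin-GAL4, which is active in every cell, with temperature-sensitive GAL80 (tsGAL80;tubG4). The control was tsGAL80;tubG4/+, and the other groups carried a Psi RNAi or a Myc RNAi transgene in place of the wild-type chromosome. Knockdown ran for the 3 days before collection, each group had 3 libraries, and each library was made from 60 discs collected in lots of 20. The labels give the stage of the larvae both as the middle of the 3rd instar and as wandering 3rd instar. Nothing in the labels ties a pool to a separate cross, so the p-values measure the spread between pools.

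The gene count files held 26287040 to 34401160 counts per library. Psi transcripts were at 322 to 335 CPM in control, 61.7 to 74.7 CPM in Psi RNAi and 307 to 346 CPM in Myc RNAi discs (edgeR log2 fold change -2.28 ± 0.08, adjusted p = 1.13e-06 for Psi RNAi). Myc transcripts were at 139 to 150 CPM in control, 107 to 118 CPM in Psi RNAi and 103 to 132 CPM in Myc RNAi, where the change of -0.34 ± 0.09 did not pass 0.01 (adjusted p = 0.0146). Wing disc markers summed to 1672 to 1696 CPM in control and 1573 to 1763 CPM in Psi RNAi. Fat body markers ran from 586 to 9949 CPM among controls and from 241 to 6135 CPM in Psi RNAi, and salivary gland and gut markers were at 1554 CPM in Psi RNAi replicate 1 against 10.1 and 10.7 CPM in its other replicates. Haemocyte markers summed to 171 to 388 CPM in control and 96.3 to 139 CPM in Psi RNAi, and of the 5 genes Hml and Pxn did not overlap between the groups. Glia markers summed to 548 to 574 CPM and 575 to 605 CPM, mostly from Gli and nrv2, and the defining glial gene repo was at 0.572 to 2.28 CPM in control and 0.432 to 0.669 CPM in Psi RNAi. The part of these cells in the results was not tested.

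The skipped exon table gives, for each event, 3 values of 1 group and then 3 of another, and its header does not say which group is Psi RNAi and which is control. The groups are therefore called the first-listed and the second-listed group, and each difference is given by its size and by the listed group in which the exon was included more. The inclusion level is the share of transcripts that hold the exon, estimated from reads of the inclusion and skipping forms, each divided by the length over which the form can give reads.

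Most short skipped exons kept the reading frame. Of the 443 exons, 308 lay in coding sequence, 96 in 5′ UTRs, 27 across a start or stop of coding sequence, 6 in 3′ UTRs and 6 in non-coding transcripts. Among the 308 coding exons, 242 had a length that is a multiple of 3, or 78.6%, whereas 1308 of 2779 longer coding exons did, or 47.1%. In 5′ UTRs, where no frame is kept, the shares were 36.5% of 96 short and 30.5% of 550 longer exons. Within the short coding exons the share was 83.8% of 37 at 12 nt or less, 88.0% of 83 at 13 to 27 nt, 78.4% of 102 at 28 to 39 nt and 67.4% of 86 at 40 to 50 nt, and it went down further to 55.0% of 607 at 51 to 100 nt. These are descriptions of the exons listed, with no test.

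**Figure D1:**
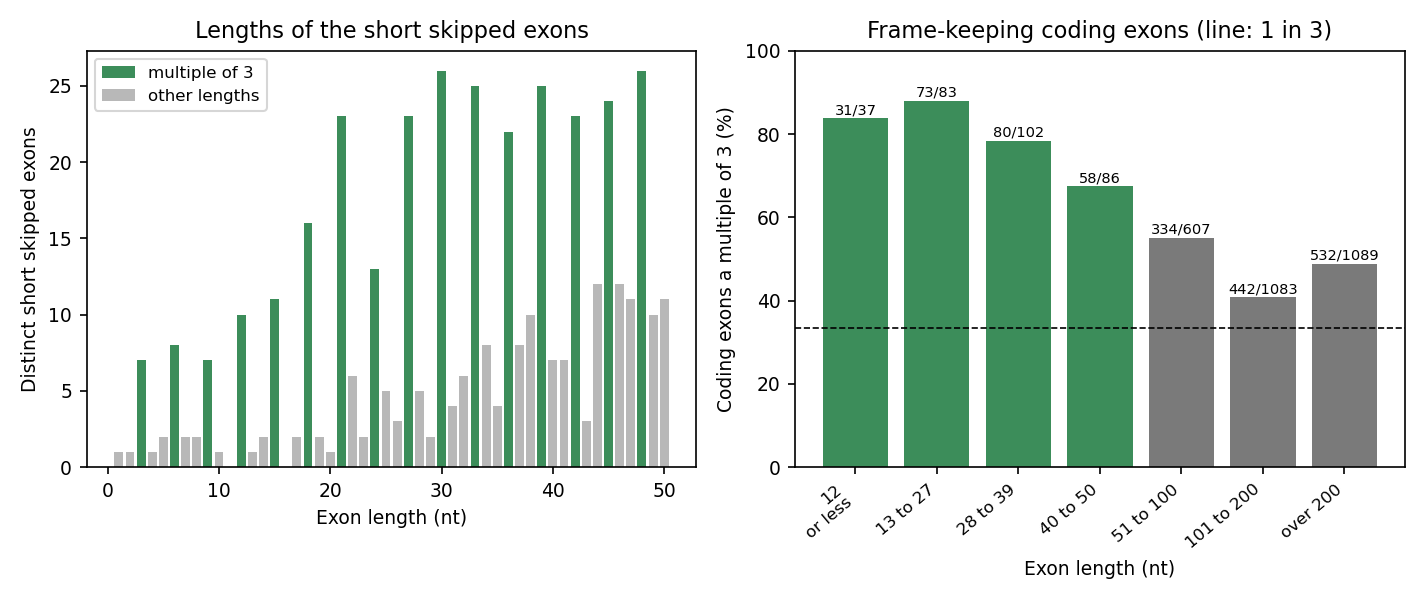
The left panel counts the distinct short skipped exons by length in nt, with multiples of 3 in green and other lengths in grey. The right panel gives the percentage of coding exons whose length is a multiple of 3 in 7 length classes (green, short; grey, longer; numbers over the bars, exons), which was 67.4% to 88.0% in the short classes and 40.8% to 55.0% in the longer ones.

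Frame and level went together among the short exons. With at least 20 reads per library on average, 207 frame-keeping coding exons had a median inclusion level of 0.067 in the first-listed and 0.060 in the second-listed group, so that most of them were left out of most transcripts. The 58 coding exons of other lengths had medians of 0.987 and 0.995. Longer frame-keeping coding exons, 1157 of them, had medians of 0.973 and 0.989. Only 19.3% of the short frame-keeping exons were above a level of 0.9, against 75.9% of the other short coding exons and 62.7% of the longer frame-keeping ones.

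Over all short events with at least 20 reads, 34.1% had a level under 0.1, 25.2% lay between 0.1 and 0.9 and 40.7% were above 0.9. The shares in longer exons were 13.4%, 17.2% and 69.3%. A transcript that joins the flanking exons directly is annotated for 62.0% of the short events and 34.2% of the longer ones. Short events with that junction annotated had a median level of 0.081 in the first-listed group, and those without it had 0.99. The introns beside short exons had medians of 559 nt before and 544 nt after the exon, against 832 and 708 nt beside longer exons. Neuron markers, summed over 9 genes, were at 78.6 to 166 CPM in control and 73.3 to 82.8 CPM in Psi RNAi libraries. The part of neurons in the levels of short exons was not tested.

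The 2 groups of the table differed in 46 short events. A test needed at least 20 reads per library and at least 2 of the rarer form, each on average: 135 short events fell short of the first and 212 of the second, which leaves 248 events of 217 exons in 190 genes. The weighted limma fit over all 2081 events tested called 46 short events at an adjusted p below 0.01, or 18.5%, beside 22.2% of all events tested and 22.7% of longer ones. The count depends on the test: the unweighted one first planned called 1 short event, untransformed levels gave 11, and quasi-binomial regression, with 74 short events at an unadjusted p under 0.05, gave 0. The 1 event of the planned test, which was run without the rarer-form minimum, was not among the 46. Of the 11 from untransformed levels, 7 were among the 46. The 46 events were 41 exons of 37 genes, and 24 of them were called again whichever of the 6 values was left out. Without the first value of the second-listed group the count was 28, and without any other value it was 33 to 45. Of the 46, 21 were included more in the first-listed group and 25 more in the second-listed group. Of the 463 called among all events, these counts were 179 and 283 (8.6% and 13.6% of those tested).

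The share called went with read depth in both classes. Among short events it was 6.74% of 89 at 20 to under 100 reads per library, 22.6% of 124 at 100 to under 500 and 34.3% of 35 at 500 reads and more. Longer events gave 10.6%, 23.9% and 34.5% at the same depths. The short events tested had a median of 154 reads per library and the longer ones tested 209. Within each depth class the share of short events called lay below that of longer ones, by the least at 500 reads and more. By length, 5 of 21 events tested were called at 12 nt or less, 10 of 65 at 13 to 27 nt, 11 of 82 at 28 to 39 nt and 20 of 80 at 40 to 50 nt.

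The sizes of difference were set beside those of longer exons. Over the 460 short events with at least 20 reads the median difference in inclusion level was 0.0147, beside 0.0113 over 5051 longer and 0.0117 over all events, and the median SD within a group was 0.0146, 0.0124 and 0.0126. Among the 46 called short events the median was 0.121, with quartiles of 0.062 and 0.182, and among 417 called longer events it was 0.107, with quartiles of 0.051 and 0.210. A call with a difference of at least 0.1 was made in 27 short events, or 10.9% of those tested, beside 11.7% of all events tested. The 3 values of 1 group lay wholly above those of the other in 124 of the 248 short events tested, beside 44.9% of all.

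The direction of a difference went with the level of the exon. Of the 23 called short events with a mean level below 0.5, 20 were included more in the first-listed group, and of the 23 with a level of 0.5 or more, 22 were included more in the second-listed group. The first-listed group thus held more of the rarer form in 42 of 46 called events. Longer exons gave the same order, with 128 of 184 called events below 0.5 higher in the first-listed group and 203 of 233 at 0.5 or more higher in the second. It also held in short events that were tested and not called, at 72 of 116 below 0.5 and 57 of 86 at 0.5 or more. The order was thus shared by the whole table and not limited to its short exons. Among called longer events the first-listed group held more of the rarer form in 331 of 417, a smaller share than among called short events.

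**Figure D2:**
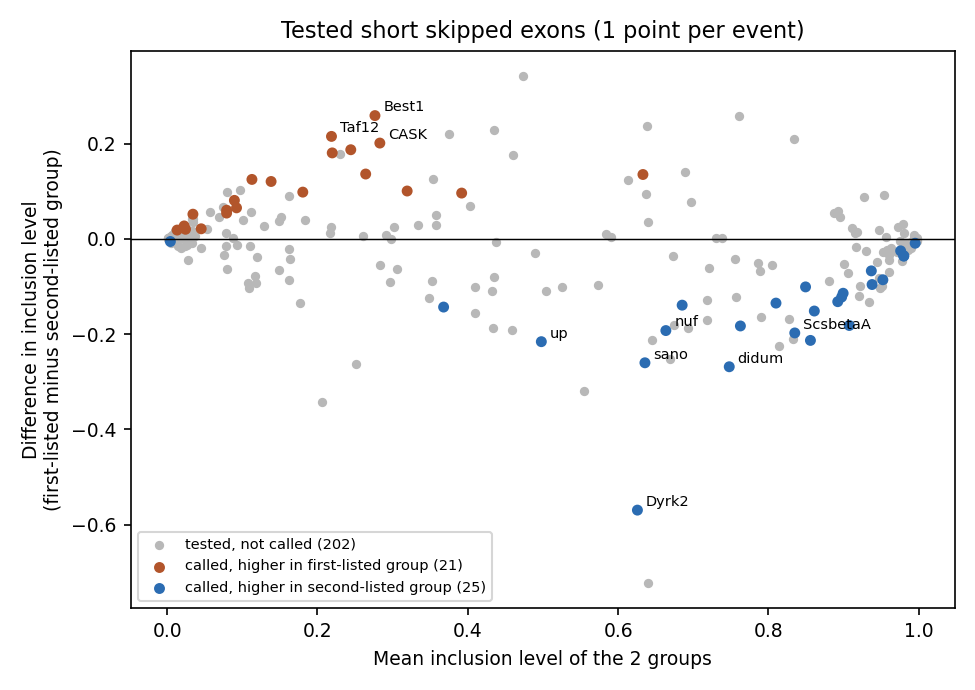
Each point is 1 of the 248 short events tested, placed by its mean inclusion level (x axis) and by the level in the first-listed minus that in the second-listed group (y axis), with events not called in grey, the 21 called higher in the first-listed group in orange and the 25 called higher in the second-listed group in blue. Orange points lie mainly at low levels and blue points mainly at high levels; the grey point at the bottom is eIF2Bdelta, which had 5 reads in the second-listed group.

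The largest difference among the called short exons lay in a protein kinase gene, and other kinases and a kinase-like scaffold were called as well. Dyrk2, a dual-specificity kinase, has a 5 nt exon in its 5′ UTR at chr2L:14229532-14229536, whose level was 0.293, 0.335 and 0.395 in the first-listed group and 0.874, 0.909 and 0.948 in the second-listed group. The groups were far apart, the difference in means was 0.569, and limma gave a logit difference of -2.85 ± 0.29 (adjusted p = 4.31e-13). A second Dyrk2 5′ UTR exon, of 43 nt, was at 0.821, 0.791 and 0.897 against 0.956, 0.972 and 0.947, so both Dyrk2 exons were included more in the second-listed group. Both were called whichever value was left out. Dyrk2 transcripts themselves were at 172 to 206 CPM in control and 202 to 233 CPM in Psi RNAi discs (edgeR adjusted p = 0.37).

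CaMKI, a calcium/calmodulin-dependent kinase, has a 45 nt coding exon that was at 0.319, 0.299 and 0.271 in the first-listed group and 0.395, 0.452 and 0.471 in the second. CASK, a membrane-associated scaffold with a kinase-like domain, went the other way at a 30 nt coding exon, with 0.428, 0.470 and 0.253 against 0.104, 0.218 and 0.225. The CASK groups did not overlap, but the call was kept in 3 of 6 fits with a value left out, with an adjusted p of up to 0.031. Slik, a Ste20-like kinase that activates Moesin, had a 27 nt coding exon at 0.221, 0.193 and 0.275 against 0.095, 0.156 and 0.143. Its call was kept in 2 of those 6 fits. Gprk2, a G protein-coupled receptor kinase that acts on Smoothened, had a 48 nt 5′ UTR exon at 0.752, 0.733 and 0.743 against 0.930, 0.876 and 0.826, also called in 2 of the 6 fits. Slik and Gprk2 were named after their values were seen. Of the 82 genes listed as kinases and phosphatases, 13 held a short exon, and 4 of their 7 events tested were called, 2 in each direction, or 57.1% beside 22.2% of all events tested. Longer exons of this list gave 24 calls in 89 events. The 4 short events called were both Dyrk2 exons and those of CASK and Slik, while CaMKI and Gprk2 are not in that list. With only 7 short events tested, the share called says little about the list.

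Motor, cytoskeletal and membrane traffic genes held several of the larger differences. The 24 nt coding exon of didum, the gene of myosin V, a motor that carries cargo along actin, was at 0.599, 0.586 and 0.656 in the first-listed group and 0.808, 0.944 and 0.894 in the second. nuf encodes the Rab11 adaptor Nuclear fallout, and its 45 nt coding exon was at 0.538, 0.523 and 0.641 against 0.753, 0.793 and 0.733. A 39 nt exon of nuf was at 0.539, 0.642 and 0.666 against 0.830, 0.717 and 0.717 and kept its call in 4 of 6 fits with a value left out. All 3 exons were included more in the second-listed group, with no overlap between groups.

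hts, the gene of adducin, which links spectrin to actin, has a 49 nt 5′ UTR exon that was at 0.786, 0.805 and 0.859 in the first-listed group and at 0.995, 1 and 1 in the second. The same exon with another flanking exon was at 0.95, 0.965 and 0.972 against 0.993, 1 and 1, and that call was kept in 2 of 6 fits. shi encodes dynamin, the GTPase that pinches off endocytic vesicles, and a 12 nt coding exon of shi was included at 0.895, 0.872 and 0.903 against 0.986, 0.989 and 0.982. The spread within each group was small and limma gave an adjusted p of 4.64e-08. Arf6, a small GTPase of membrane recycling, had an 18 nt 5′ UTR exon at 0.149, 0.136 and 0.241 against 0.052, 0.056 and 0.043. Unlike the hts and shi exons it was mostly left out, and it was included more in the first-listed group.

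**Figure D3:**
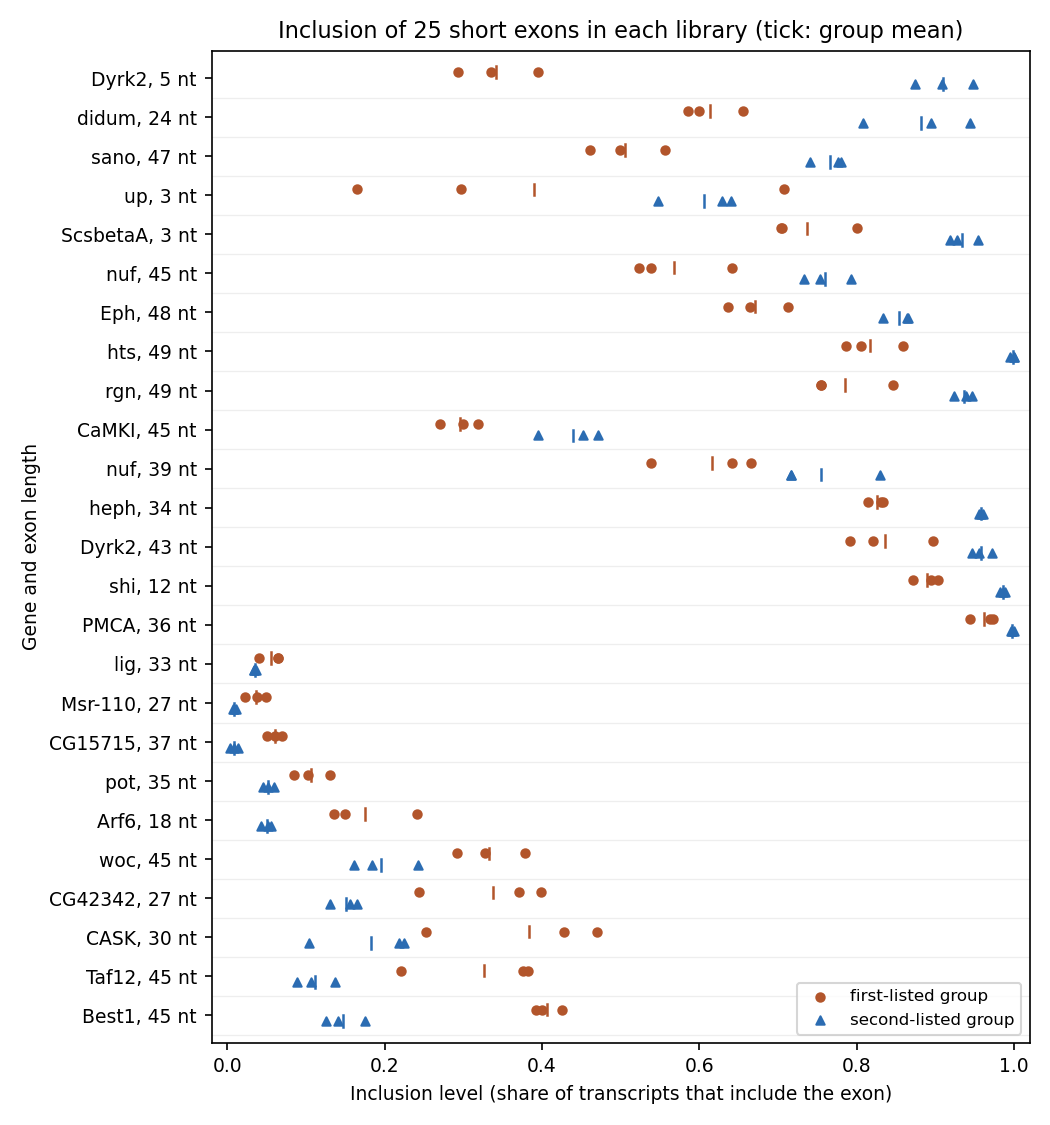
The inclusion level (x axis, from 0 to 1) of 25 called short exons is shown in each library, with orange circles for the first-listed group, blue triangles for the second-listed group and a tick at each mean. The exons are the 15 of largest difference and the 10 of smallest p among the rest, from Dyrk2 (0.293 to 0.395 against 0.874 to 0.948) at the top to Best1 (0.393 to 0.425 against 0.125 to 0.175) at the bottom; up is the exon shown whose groups overlap.

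The list of actin and muscle cytoskeleton genes gave 4 calls in 12 short events tested, in didum, hts and up, or 33.3% beside 22.2% of all events tested, and all 4 were higher in the second-listed group. The calls came from 3 exons, since the hts exon was called with 2 different pairs of flanking exons. Longer exons of this list gave 7 calls in 49 events, or 14.3%. up encodes troponin T of muscle, and its 3 nt coding exon was at 0.297, 0.708 and 0.165 in the first-listed group and 0.629, 0.640 and 0.548 in the second. The groups overlap: 1 first-listed value lay above all 3 second-listed values. The call was kept in 4 of 6 fits with a value left out. The event had 183 reads in the first-listed and 68 in the second-listed group. Transcripts of up were at 4.58 to 9.31 CPM in control and 2.18 to 31.6 CPM in Psi RNAi, and larval muscle markers summed to 49.4 to 90.3 CPM and 40.7 to 228 CPM. The part of larval muscle RNA in the inclusion of this exon was not tested. Microtubule genes gave 1 call in 6, or 16.7%, an 18 nt exon of Jupiter at 0.004, 0.000 and 0.001 against 0.013, 0.008 and 0.000, where the groups overlap and the call was kept in 2 of 6 fits.

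The smallest p among short exons lay in a gene of an RNA-binding protein. heph encodes the fly polypyrimidine tract-binding protein, itself a splicing repressor, and its 34 nt exon at chr3R:31864597-31864630 was at 0.831, 0.833 and 0.815 in the first-listed group and 0.958, 0.960 and 0.956 in the second. The difference of 0.132 was many times the spread within either group (limma adjusted p = 8.71e-24). The exon lies in coding sequence, its length is not a multiple of 3, and no annotated transcript joins its neighbours directly. A 42 nt exon of heph was at 0.036, 0.049 and 0.019 against 0.010, 0.021 and 0.012, with groups that overlap, and it was included more in the first-listed group. Its call was kept in 2 of 6 fits with a value left out. heph transcripts were not called at the gene level (adjusted p = 0.50).

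msi, the gene of the RNA-binding protein Musashi, had a 48 nt coding exon at 0.152, 0.281 and 0.163 against 0.075, 0.090 and 0.069, a call kept in 2 of 6 fits. lig, the gene of the UBA-domain protein Lingerer, had a 33 nt coding exon at 0.064, 0.064 and 0.040 against 0.034, 0.034 and 0.036. The lig difference of 0.021 was small, but it rested on 1701 reads per library and was called in all 6 fits. The 12 splicing and RNA-binding genes with a short exon had 23 events tested, of which 4 were called, 3 higher in the first-listed and 1 higher in the second-listed group, or 17.4% beside 22.2% of all events.

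Receptors, channels and cell surface proteins followed. Eph, the only Eph receptor tyrosine kinase of the fly, had a 48 nt coding exon at 0.637, 0.664 and 0.713 in the first-listed group and 0.865, 0.833 and 0.864 in the second. Best1 encodes a bestrophin chloride channel, and its 45 nt coding exon was at 0.425, 0.400 and 0.393 against 0.125, 0.175 and 0.141. The Best1 and Eph exons were called in every fit with a value left out, in opposite directions. PMCA, the plasma membrane calcium pump, had a 36 nt coding exon at 0.969, 0.973 and 0.944 against 0.996, 0.998 and 1. pot, which encodes a zona pellucida-domain protein of the apical extracellular matrix, had a 35 nt 5′ UTR exon at 0.103, 0.085 and 0.131 against 0.059, 0.045 and 0.052.

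rgn encodes a C-type lectin-like protein, and its 49 nt 5′ UTR exon was at 0.846, 0.755 and 0.755 against 0.947, 0.939 and 0.924. kug encodes the atypical cadherin Fat2, and a 30 nt coding exon of kug was at 0.023, 0.031 and 0.014 against 0.005, 0.003 and 0.004. dlg1 encodes the septate junction scaffold Discs large, and had a 45 nt exon at 0.474, 0.432 and 0.414 against 0.330, 0.328 and 0.373 and a 24 nt exon at 0.101, 0.135 and 0.139 against 0.071, 0.048 and 0.060. The groups did not overlap in any of these 4 exons. The kug call was kept in 2 of 6 fits with a value left out, the 45 nt dlg1 call in 3 and the 24 nt dlg1 call in 0 of 6, with an adjusted p of up to 0.051.

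Metabolic, transcription and other genes held the rest of the exons named by size or p. ScsbetaA encodes a subunit of succinyl-CoA synthetase, an enzyme of the tricarboxylic acid cycle, and its 3 nt coding exon at chr3R:8941314-8941316, enough for 1 amino acid, was at 0.704, 0.705 and 0.800 in the first-listed group and 0.919, 0.928 and 0.954 in the second. Taf12, a subunit of the general transcription factor TFIID, had a 45 nt 5′ UTR exon at 0.376, 0.382 and 0.221 against 0.107, 0.137 and 0.089. woc encodes a zinc-finger protein, and its 45 nt coding exon was at 0.378, 0.327 and 0.292 against 0.161, 0.243 and 0.184. ScsbetaA went up in the second-listed group, and Taf12 and woc in the first-listed group, each in every fit with a value left out.

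sano encodes Serrano, a protein of planar cell polarity, and its 47 nt 5′ UTR exon was at 0.461, 0.557 and 0.499 against 0.776, 0.741 and 0.780. CG42342 had a 27 nt coding exon at 0.399, 0.371 and 0.244 against 0.131, 0.165 and 0.156. CG15715 had a 37 nt 5′ UTR exon at 0.061, 0.070 and 0.050 against 0.013, 0.004 and 0.008, and Msr-110 a 27 nt coding exon at 0.049, 0.038 and 0.022 against 0.007, 0.011 and 0.009. The groups did not overlap in these 4 exons, and each call was kept in all 6 fits. The called events not named here had differences of at most 0.114, apart from second events of exons already given.

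Frame was also counted among the called exons. Of the 30 called coding exons, 24 were multiples of 3, or 80%, beside 84.6% of the 143 short coding exons tested. In 5′ UTRs 3 of 11 called exons were, beside 20 of 55 tested. Longer coding exons gave 59.9% of those called and 57.8% of those tested.

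The 5 shortest exons tested were of 1 to 3 nt. The listed 1 nt exon of CG30423 was at 0.995 to 1 in all 6 libraries (adjusted p = 0.16). The 2 nt 5′ UTR exon of CG42238 was at 0.827, 0.977 and 0.887 against 1 in each second-listed library (adjusted p = 0.031), and the 3 nt exon of AnxB10, an annexin, was at 0.836 to 0.957 in all (adjusted p = 0.86). The other two, in ScsbetaA and up, were called. A read shows an exon of this size only if it spans both its junctions, and how the aligner's placement of such reads bears on these levels was not tested.

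At the limit itself, the 50 nt exons with most reads were those of RpL23, a ribosomal protein, sun, an ATP synthase subunit, and Fmr1, an RNA-binding protein. RpL23 was at 1 in all libraries and Fmr1 at 0.997 to 1. sun was at 0.004, 0.004 and 0.012 against 0.003, 0.001 and 0.001 (adjusted p = 0.011). Just outside it, the 51 nt exons of br and CG6287 were at 0.998 to 1, and that of Lsd-2, the fly perilipin of lipid droplets, was at 0.449, 0.449 and 0.402 against 0.411, 0.459 and 0.447 (adjusted p = 0.83).

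Several lists gave no short exon call. Small GTPase regulators had 2 events tested, in RhoGAP1A, at 0.623 to 0.688 against 0.629 to 0.749, and Evi5, at 0.061 to 0.128 against 0.071 to 0.148. Transcription and chromatin genes had 5, of which the 9 nt exon of TfIIA-L was at 0.745, 0.785 and 0.802 against 0.822, 0.819 and 0.857 (adjusted p = 0.034), the 44 nt exon of E(bx), the largest NURF subunit, at 0.068 to 0.127 against 0.097 to 0.182, and the 22 nt exon of br at 0.993 to 1. Wing growth and patterning genes had 1, the 22 nt 5′ UTR exon of app, a palmitoyltransferase that acts on Fat signalling, at 0.482 to 0.657 against 0.496 to 0.637.

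Members of other lists also missed the threshold. In sw, the gene of a dynein intermediate chain, a 21 nt exon was at 0.908, 0.901 and 0.958 against 0.843, 0.880 and 0.868 (adjusted p = 0.21) and a 48 nt exon was at 0.057 to 0.098 against 0.065 to 0.1. The 9 nt exon of unc-13, a synaptic vesicle priming factor, was at 0.003 to 0.046 in all. The 10 nt exon of cac, a voltage-gated calcium channel, was at 0.431, 0.377 and 0.377 against 0.668, 0.565 and 0.909, with no overlap, but on 23 reads per library it did not pass (adjusted p = 0.065). Endocytosis genes gave 1 call in 2 events, ion channels and transporters 2 in 8, and cell adhesion and axon guidance genes 3 in 8, beside 22.2% of all events tested, and with so few events tested these counts say little about the lists.

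The total reads of an event, both forms together, differed at least 4-fold between groups in 4 of 473 short events with at least 60 reads in 1 group, or 0.846%, and in 36 of 5129 longer ones, or 0.702%. These 4 were named after their values were seen. The 34 nt 3′ UTR exon of Nop60B, a pseudouridine synthase of ribosomal RNA, had 1 read in the first-listed and 398 in the second-listed group. The 38 nt exon of eIF2Bdelta, a subunit of a translation initiation factor, had 271 and 5 reads. It showed the largest difference in level of any short event tested, 0.283, 0.285 and 0.268 against 1 in each, but the second group's level rests on those 5 reads and was not called (adjusted p = 0.17). The 40 nt exon of the snoRNA host gene Uhg1 had 111 and 3 reads, and the 19 nt exon of CG33978 had 35 and 160.

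The events of Nop60B, eIF2Bdelta and Uhg1 lie on chromosome arm 2R, whose share of all events was not counted. Gene counts of Nop60B and eIF2Bdelta differed by far less than the reads of these events: Nop60B was at 476 to 506 CPM in control and 444 to 511 CPM in Psi RNAi, and eIF2Bdelta at 76.3 to 87.3 CPM and 101.6 to 103.8 CPM.

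The genes that hold short exons were also compared at the level of whole transcripts, where the libraries are labelled. Of the 370 host genes 365 could be tested, and 28 of them changed in Psi RNAi at an adjusted p below 0.01, or 7.67%, beside 4.07% of all 9235 genes tested. Of the 28, 6 rose and 22 fell. Of the 376 called among all genes, 166 rose and 210 fell (1.8% and 2.27% of those tested). The median log2 fold change was -0.02 over the host genes and -0.01 over all genes. In Myc RNAi, compared with the same control libraries, 84 host genes changed, or 23%, beside 19% of all genes tested. With the replicate number as a block 96 host genes changed. Of the 84, 53 rose and 31 fell. Of the 1754 called among all genes in Myc RNAi, 702 rose and 1052 fell (7.6% and 11.4% of those tested). Leaving out Psi RNAi replicate 3 gave 21 host gene calls in Psi RNAi and leaving out any other control or Psi RNAi library gave 11 to 15, and in Myc RNAi the count was 52 without control replicate 1, 55 without Myc RNAi replicate 1 and 57 to 75 without any other. In bulk libraries fewer cells that express a gene and less RNA per cell cannot be told apart.

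nrm, which encodes the immunoglobulin-domain adhesion protein Neuromusculin, fell most among the 10 host genes of smallest p. It was at 15.8, 16.6 and 15.6 CPM in control and 4.89, 3.84 and 4.44 CPM in Psi RNAi (log2 fold change -1.87 ± 0.12, edgeR adjusted p = 3.29e-05), and its 3 Myc RNAi libraries lay between, at 7.26 to 8.76 CPM. The transcription factor gene ewg was at 142 to 148 CPM in control and 60.4 to 74.3 CPM in Psi RNAi. norpA, the phospholipase C of phototransduction, was at 122 to 135 CPM and 60.7 to 69.4 CPM. In none of these 3 genes did control and Psi RNAi overlap. hfp, the fly PUF60 and a splicing regulator, fell by 0.63 ± 0.07 on the log2 scale, Mp, a collagen, by 0.54 ± 0.07, the protein kinase C gene Pkc98E by 0.59 ± 0.07, CG7694 by 0.98 ± 0.10 and a, which encodes the PDZ protein Arc of apical junctions, by 0.43 ± 0.06. l(3)80Fg rose by 0.98 ± 0.12 and CG42268 by 0.49 ± 0.05. CG42268 also rose in Myc RNAi, by 0.61, and CG7694 rose there by 0.57.

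**Figure D4:**
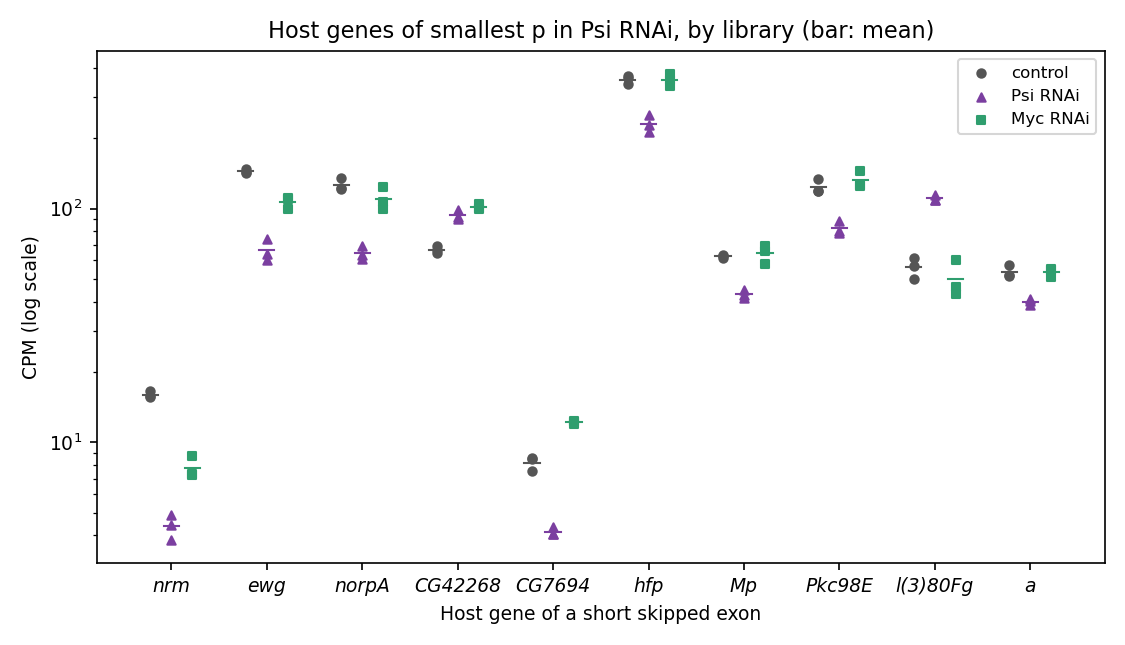
CPM (log axis) of the 10 host genes of smallest p in Psi RNAi is shown for each of the 9 libraries, with grey circles for control, purple triangles for Psi RNAi, green squares for Myc RNAi and a bar at each mean. Psi RNAi lies below control in 8 genes and above it in CG42268 and l(3)80Fg, and nrm goes from 15.6 to 16.6 CPM in control to 3.84 to 4.89 CPM in Psi RNAi.

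Of the 37 genes with a called short exon, 3 changed in transcript level in Psi RNAi, or 8.11%, beside 7.67% of all host genes and 4.07% of all genes tested: CG42268 rose, and rgn and CaMKI fell. rgn was at 313 to 367 CPM in control and 213 to 238 CPM in Psi RNAi (log2 fold change -0.57 ± 0.08, adjusted p = 0.0024), and CaMKI at 181 to 206 CPM and 140 to 159 CPM (-0.39 ± 0.07, adjusted p = 0.0071). The 38 nt coding exon of CG42268 was at 0.921, 0.866 and 0.941 in the first-listed group and 1, 1 and 0.985 in the second, a call kept in 3 of 6 fits with a value left out. In Myc RNAi 4 of the 37 changed, CG42268, sano, CG15715 and lig.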

How the data were processed

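RNA of 9 libraries (3 control, 3 Psi RNAi and 3 Myc RNAi) had been enriched for poly(A), made into stranded TruSeq libraries, aligned by the authors to FlyBase release 6.10 with TopHat2 2.1.1 and counted per gene with HTSeq 0.6.1; these deposited counts are raw. Ambiguous reads took 1.52% to 1.80% and reads without a feature 1.28% to 1.90% of each file and were left out. The authors compared Psi RNAi and control splicing with rMATS 4.0.2, on reads over junctions and exons. Read counts and inclusion levels of the deposited skipped exon table were used. Its p-values, FDR and differences, and the authors' tables of differential expression, hold their comparisons and were not used, nor were the other event types. A total of 42 columns of values per library were left unused.

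A spreadsheet had removed the commas between the 3 read counts of many cells. Splits were sought whose length-scaled share lay within 0.00051 of the deposited level in each library. Of 595 short events, 335 were intact, 160 had 1 split and 100 had several. Among all 6493 events, short and longer, 2228 had several. The evenest split was taken, which sets the weights and the read counts and hardly changes the level. Where a form had few or no reads, the split also moves the logit tested, since 0.5 read was added to each form. Both called events of hts and those of CG42268 and eff were among the 100 short events with several splits. The weights and logits behind those calls therefore rest on the split taken.

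The test first planned, limma on logit levels held within 0.01 and 0.99, called 1 event of the table and, in simulated data, recovered none of the smaller and fewer of the larger changes than a test on reads. It was replaced for these reasons, after the data had been seen. The spread of the simulated reads was a set value and was not taken from these libraries. The simulation therefore does not show how often either test calls unchanged events in these data. The logit of reads per effective length, with 0.5 read added to each form, was fitted with limma 3.58.1 (R 4.3.3), weighted by counting precision, with trended and robust eBayes, over events with a mean of at least 20 reads and at least 2 of each form per library. Values in a cell carry no replicate number. P-values are two-sided and Benjamini-Hochberg adjusted over all events tested, called below 0.01; the script was tested on simulated data. Genes were tested with edgeR 4.0.16 (TMM, filterByExpr, robust quasi-likelihood, all 9 libraries) on counts; CPM use the TMM library sizes, and ± is the standard error. DESeq2 1.42.0 was an alternative. Deviations of same-numbered libraries correlated at 0.309, 0.232 and 0.442 for control and Myc RNAi, which were taken as paired. For control and Psi RNAi they correlated at 0.304, 0.090 and 0.212, and these were not taken as paired. Counts of calls with the replicate number as a block are given beside those without. All other gene-level values, Myc RNAi directions and p-values among them, come from fits without the block.

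Exon positions are those of the deposited table, 1-based, release 6. Every short exon matched an annotated exon of Ensembl 115 (BDGP6), which gave its position in the transcript, and 359 of 370 gene IDs were found there by ID and the rest through their exons. No genome sequence was used. Named exons were the 15 called of largest difference, the 10 called of smallest p among the rest, the 5 shortest tested, 3 on either side of 50 nt and up to 3 of each of 10 gene lists by smallest p; host genes were the 10 of smallest p called in Psi RNAi. The exons, lists and tests were chosen with earlier results of these data known.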

Additional observations from a re-analysis of the deposited data

How the results depend on the processing

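The count of called short exons depended on the test. Against 46 of 248 (463 over all events), the test first planned, on logit levels held within 0.01 and 0.99 without weights, called 1 (1 over all), bounds of 0.05 and 0.95 gave 3 (21), untransformed levels 11 (119) and quasi-binomial regression 0 (0), with 74 of 248 short and 702 of 2081 events at an unadjusted p under 0.05. Of the 46, the test first planned called 0 again, bounds of 0.05 and 0.95 called 1 and untransformed levels 7. The tests on bounded levels were run without the rarer-form minimum. A threshold of 0.05 gave 85 (749), a further demand for a difference of 0.1 gave 27 (244), and exons of at most 27 nt gave 15. Leaving out 1 value gave 28 to 45 short calls and 323 to 493 over all events; the lowest short count came without the first value of the second-listed group. The minimum of reads or of the rarer form and 1 row per exon kept both counts within 1.5 times, at 41 to 53 short calls. The weighted settings without a rarer-form minimum were added after seeing the data. The share of short events tested whose length is a multiple of 3, in coding sequence or not, was 68.5%, and 81.4% at 27 nt or less. The median size was 0.0113 to 0.025 for short and 0.0093 to 0.016 for longer exons over all settings. No named exon or host gene turned its direction while called. Of the named exons not called, 5 changed sign with 1 value left out: their first minus second differences ran from -0.0248 to 0.0307 in AnxB10, -0.0197 to 0.01 in Lsd-2, -0.0032 to 0.0138 in unc-13, -0.0388 to 0.0055 in Evi5 and -0.0307 to 0.0643 in app. Host gene calls in Psi RNAi were 28, with DESeq2 57 and without 1 library 11 to 21; in Myc RNAi they were 84, with DESeq2 133 and without 1 library 52 to 75. With the replicate number as a block they were 30 and 96, and the block moved no count by over 1.5 times; in control and Psi RNAi each library correlated best with its own number. No paired analysis was possible because the splicing table carries no replicate numbers. At under 100 reads per library 6 of 89 short events tested were called, at a median difference of 0.0933 over the 89, and those not called are undecided at this depth.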
